A study of Mus musculus with 5 samples.

Results

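Myf6 and Myh3 were followed in forelimb muscle tissue of mouse embryos, 2 of the 4743 genes listed in each of 5 libraries. They were taken by gene symbol, and both passed the filter on low values. Myf6 encodes a basic helix-loop-helix (bHLH) factor of the myogenic regulatory family, also called MRF4, and Myh3 encodes the embryonic myosin heavy chain. There were 3 libraries from Noggin-deficient embryos and 2 from wild type control embryos, all of strain C57BL/6 and of stage E15.5. Noggin is an extracellular antagonist of bone morphogenetic proteins (BMPs), and the study's title places it in the interplay of BMP signals and mechanical forces around muscle. The labels name neither the Nog allele nor whether a library came from 1 embryo or a pool, so p-values measure only the spread between these libraries, which may be technical.

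Myogenic regulatory factors bind E-boxes, short DNA motifs, as pairs with E proteins, and switch on genes of the contractile apparatus together with MEF2 factors. Id proteins, which BMPs induce, bind E proteins and keep them from such pairs. Myf6 is known from multinucleated fibres late in differentiation. Myh3 is the main myosin of the first fibres, beside a perinatal chain (Myh8), a slow chain (Myh7) and the adult fast chains (Myh2, Myh1 and Myh4) that take over later.

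Nog itself, the targeted gene, was at 0.49, 0.42 and 0.42 in Noggin-deficient and at 2 and 1.99 in wild type libraries. The listed values summed to 92210 to 93695 in Noggin-deficient and to 100792 to 102783 in wild type libraries, in a unit that is not named. The tables appear to hold only genes that differ between the groups, by a rule that the labels do not state: 98% of the 3913 genes tested were called (adjusted p under 0.05), 60.1% lower and 37.9% higher in Noggin-deficient libraries, and the log2 change was under 0.2 in size for 12 of them. The groups did not overlap for 99.3% of the tested genes. A call, or a gap between the groups, therefore sets neither Myf6 nor Myh3 apart, and the results below rest on the size of each change and its place among other genes.

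Both genes lie in clusters of their own family (GENCODE annotation, GRCm38). Myf6 has 3 exons and lies on the minus strand of chromosome 10 (chr10:107492853-107494737), 6718 bases from Myf5. Myh3 lies on the plus strand of chromosome 11 (chr11:67078300-67102291), with up to 41 exons, at the head of a row of 6 myosin heavy chain genes that ends with Myh13 and spans 293287 bases. Of the 7 listed genes of the 2 families, 6 matched RefSeq's promoter table (GRCm38.p6), and Myf6 did not. The 250 bases before the start sites of Myh3, whose change is described here, and of Myh4, the gene of the cluster with the lowest log2 change, are shown so that their E-boxes can be compared. Both are on the plus strand, at chr11:67078050-67078299 for Myh3 and chr11:67237562-67237811 for Myh4. Capitals mark E-boxes (CANNTG), MCAT motifs (CATTCC, bound by TEAD factors), TATAAA, CArG boxes (bound by SRF) and MEF2 sites, sought on both strands.
Myh3: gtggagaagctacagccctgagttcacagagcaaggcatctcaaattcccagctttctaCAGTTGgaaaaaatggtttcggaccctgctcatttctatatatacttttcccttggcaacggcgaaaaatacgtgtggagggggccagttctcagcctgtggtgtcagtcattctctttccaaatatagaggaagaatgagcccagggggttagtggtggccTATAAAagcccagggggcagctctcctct
Myh4: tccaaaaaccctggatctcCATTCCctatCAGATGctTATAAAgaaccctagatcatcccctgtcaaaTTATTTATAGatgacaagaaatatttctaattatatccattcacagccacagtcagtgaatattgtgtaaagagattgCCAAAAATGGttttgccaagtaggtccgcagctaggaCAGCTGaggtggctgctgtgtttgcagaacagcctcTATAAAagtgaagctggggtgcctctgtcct

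The Myh3 window held 1 E-box, CAGTTG, which begins 191 bases before the start site, and 1 TATAAA, 29 bases before it. The Myh4 window held 2 E-boxes, CAGATG and CAGCTG, 1 MCAT motif, 1 CArG box, 1 MEF2 site and 3 matches to TATAAA, of which the one on the minus strand overlaps the MEF2 site. Of all 32851 windows of this length in the table, 66.2% held an E-box, 12.6% an MCAT motif, 12.4% TATAAA, 1.47% a CArG box and 2.92% a MEF2 site. Of the other listed genes of the cluster, Myh2 (log2 change -0.59) had no match to any of these motifs in its window. Myh13 (-0.59) had 2 E-boxes and no other match. The matches describe letters, binding was not measured, and a relation of motifs to the changes was not tested.

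Myf6 fell to 52.1% of its wild type level in Noggin-deficient libraries. In bulk tissue, fewer muscle cells and less RNA per cell cannot be told apart. Its deposited values were 8.78, 8.81 and 8.62 in Noggin-deficient libraries and 16.44 and 17.12 in the wild type libraries. The groups lay far apart, and the Noggin-deficient libraries differed from each other by less than the wild type libraries did. The means were 8.74 ± 0.102 (SD, n = 3) in Noggin-deficient and 16.8 ± 0.481 (SD, n = 2) in wild type libraries. The log2 change was -0.92 (SE 0.035, 95% interval -1.0 to -0.84, limma adjusted p = 5.4e-07). Against a 1.5-fold change Myf6 still passed (limma adjusted p = 0.00019), as did 14.5% of all tested genes in either direction and 10.3% as lower. Of the 3913 tested genes, 318 (8.13%) had a lower log2 change than Myf6.

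Myh3 fell less, to 77.4% of its wild type level. Noggin-deficient libraries had 596.3, 622.1 and 588.5, and wild type libraries 780.7 and 775. The groups again did not overlap, and the second Noggin-deficient library was the highest of its group. The means were 602.3 ± 17.6 (SD, n = 3) in Noggin-deficient and 777.8 ± 4.0 (SD, n = 2) in wild type libraries. The log2 change was -0.37 (SE 0.037, 95% interval -0.46 to -0.28, limma adjusted p = 5.2e-05). Myh3 did not pass against a 1.5-fold change (limma adjusted p = 1), and 1471 tested genes (37.6%) had a lower log2 change.

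**Figure D1:**
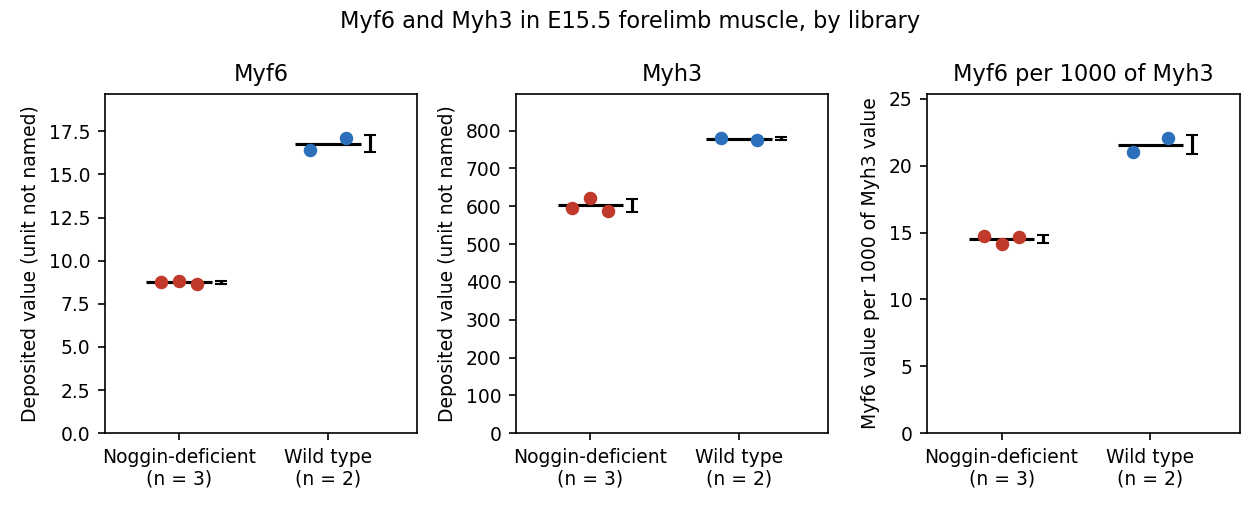
Deposited values of Myf6 and Myh3 and the number of Myf6 units per 1000 of Myh3 (vertical axes from 0) in 3 Noggin-deficient and 2 wild type libraries; points are libraries, lines are means and bars are SD. Noggin-deficient libraries lie below wild type libraries in each panel, with Myf6 at 8.62 to 8.81 against 16.44 to 17.12.

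Myf6 and Myh3 did not fall in step. Per 1000 units of Myh3 there were 14.7, 14.2 and 14.6 units of Myf6 in Noggin-deficient libraries and 21.1 and 22.1 in wild type libraries. This ratio, which no scaling of whole libraries can alter, was lower in all 3 Noggin-deficient libraries than in both wild type libraries. On the log2 scale it averaged -6.07 ± 0.031 (SD, n = 3) in Noggin-deficient and -5.51 ± 0.048 (SD, n = 2) in wild type libraries, a difference of -0.55 (exact permutation p = 0.2, two-sided, the smallest this design allows). In the fit of all genes relative to Myh3, the difference was -0.55 (95% interval -0.66 to -0.45, limma adjusted p = 4.1e-06). Against a 1.5-fold change this difference did not pass (limma adjusted p = 1). In the fit relative to Myh3 59.7% of all genes were called, 20.1% as lower and 39.6% as higher than Myh3.

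Set against genes of similar transcript length, Myf6 and Myh3 stood further apart in log2 change, though Myf6 was not more extreme by rank. Changes in these tables followed length: the median log2 change was 0.40 in the shortest eighth of the genes with a length (up to 1402 bases) and -0.37 in the longest. Myf6, with a transcript of 1263 bases, is in the shortest eighth, where 67.1% of the genes were higher in Noggin-deficient libraries and 14.3% had a lower log2 change than Myf6. Among all tested genes the latter share was 8.13%. The lowest decile of this eighth was at -1.17. Few tested genes lie near no change, so the median of an eighth mainly follows the share of its genes that rose. Myh3, with 6031 bases, is in the seventh eighth, where the median was -0.34 and 45.2% had a lower log2 change. After removal of the length trend, Myf6 had a log2 change of -1.16 (limma adjusted p = 3.9e-08), and 72.4% of all genes were still called, 36.9% as lower. Myh3 was then at -0.04 and was no longer called (limma adjusted p = 0.26). The trend was fitted to the tested genes alone, which appear to be preselected, and what gave rise to it was not tested.

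**Figure D2:**
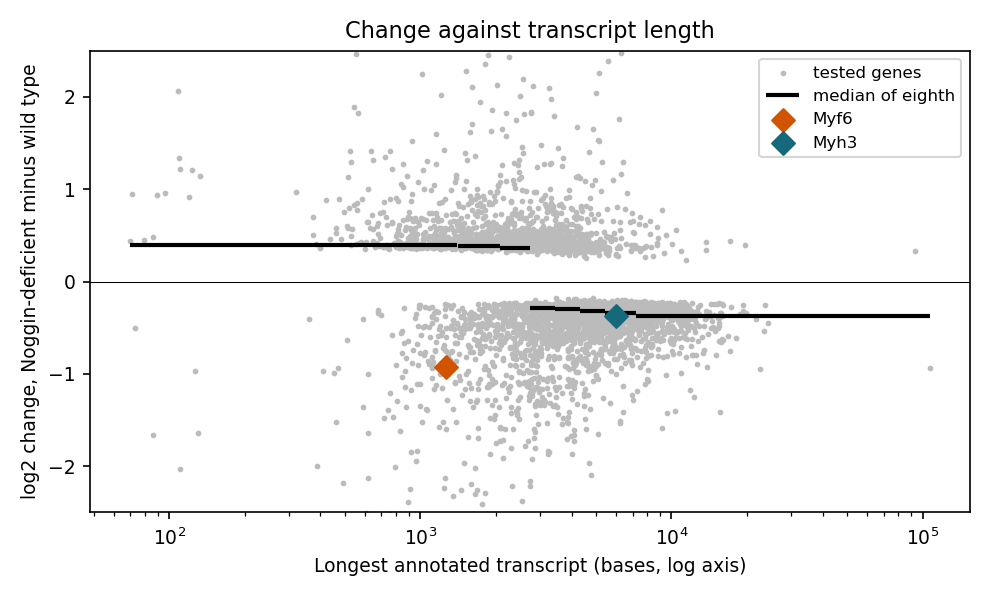
Log2 change, Noggin-deficient minus wild type, against the longest annotated transcript in bases (log axis) for the 3737 tested genes with a length, of which 53 lie beyond the vertical limits of 2.5; black lines are medians of eighths of the genes by length. Myf6 at -0.92 lies far below the median of its eighth (0.40), where 14.3% of the genes had a lower log2 change. Myh3 at -0.37 lies beside its own median (-0.34).

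Scaling moved both genes by about the same amount. With libraries scaled by median-of-ratios factors, the median over all genes moved by 0.26 log2 units, and the share of calls that were higher was 54.5%, against 38.7% as deposited. Myf6 was then at -0.65 (limma adjusted p = 2.3e-06) and Myh3 at -0.10 (limma adjusted p = 0.048). The median of all tested genes was -0.28 as deposited and -0.03 under this scaling. Myh3 stayed close to that median and Myf6 far below it. The listed genes appear to be selected for a difference, so their median is no baseline of unchanged genes. The median-of-ratios factors were computed on these same genes, so calls kept or lost under that scaling depend on the selection.

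**Figure D3:**
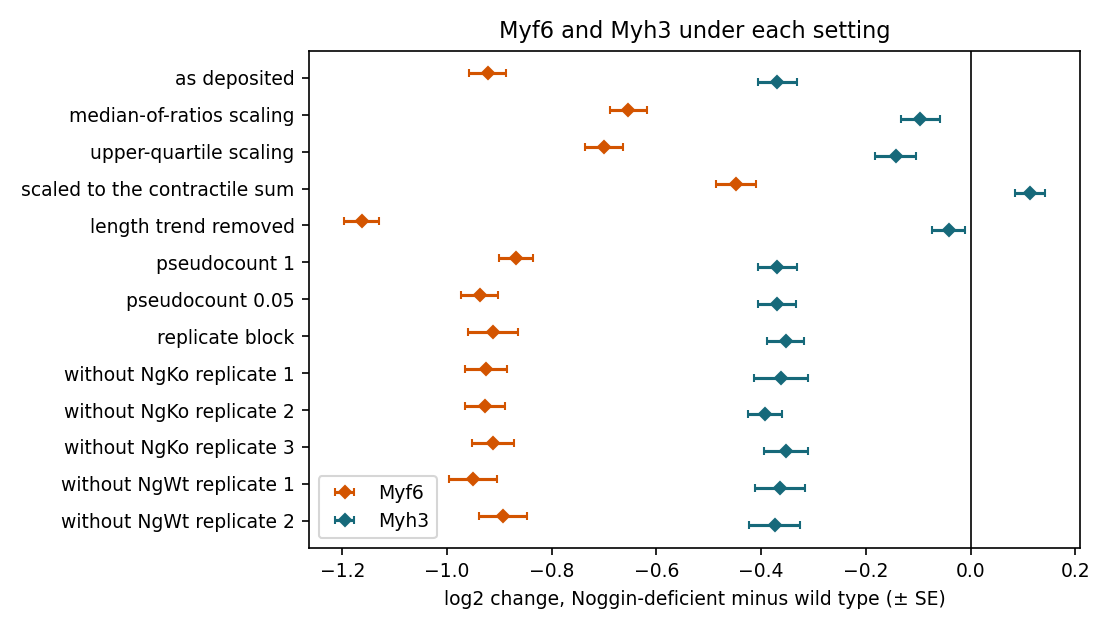
Log2 change of Myf6 and Myh3 (points) with SE (bars) under each scaling, correction, pseudocount, block and left-out library. Myf6 ranges from -1.16 to -0.45, and Myh3 comes close to 0 after removal of the length trend (-0.04) and is above 0 when libraries are scaled to their contractile sum (0.11).

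Among the regulators of the same circuit, Myf6 had the lowest log2 change. It was the only 1 of the 4 myogenic regulatory factors with values, Myf5, Myod1 and Myog not being analysed here, nor were the E proteins Tcf3, Tcf4 and Tcf12. The 20 other regulators tested, of 49 on the lists, were all called, 12 as lower and 8 as higher. Of all tested genes 60.1% were called as lower and 37.9% as higher. The median log2 change of the 20 was -0.29, against -0.28 for all tested genes. None of the 20 had a log2 change below that of Myf6, and all 20 were called as higher than Myf6 in the fit relative to it. In that fit 92.5% of all genes were called, 87% as higher than Myf6 and 5.5% as lower. The split of the 20 depends on scaling: 6 were called as lower and 8 as higher with median-of-ratios scaling, beside 32.2% and 38.6% of all genes. With libraries scaled to their contractile sum, 3 were lower and 11 higher, shares close to those of all genes (16.5% lower and 52.9% higher).

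The inhibitors of bHLH factors moved the other way. Of 7 tested, 6 rose, beside 37.9% of all tested genes. Id1, an inhibitor that BMPs induce, had values of 64.2, 65.1 and 65.1 in Noggin-deficient and 45.2 and 47.0 in wild type libraries, a log2 change of 0.49 (limma adjusted p = 3.5e-06). Twist1, a mesenchymal bHLH factor that opposes myogenic factors, rose by 0.46 on the log2 scale. Id3, Mdfi, an inhibitor of MyoD family proteins, and Hey1, a Notch effector, rose by 0.47, 0.47 and 0.55, and Bhlhe41 by 0.28. Bhlhe40, a repressor, was the exception with -0.64. None of the 7 passed against a 1.5-fold change, beside 14.5% of all tested genes. Id1 and Id3 are in the shortest eighth of genes by length, where 67.1% of all genes were higher, and Twist1 and Mdfi in the next, where 62.3% were. With the length trend removed, Id1 was at 0.22, Id3 at 0.23, Twist1 at 0.30 and Mdfi at 0.31, and the median of the 7 genes was 0.30, against 0.47 before. Fibroblasts and endothelium also express several of these genes.

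The listed genes of MEF2, TEAD, SRF and related factors and cofactors mostly fell as deposited: 11 of the 13 tested were lower and 2 higher. Of all tested genes 60.1% were called as lower and 37.9% as higher. Tead1, which binds MCAT motifs, had a log2 change of -0.67 and Mef2d one of -0.55. Mef2a and Mef2c were at -0.42 and -0.29. Six2, a homeobox gene of limb mesenchyme, rose by 0.58 and Tead2 by 0.36. With median-of-ratios scaling, this list's median was -0.12, against -0.38 as deposited. Mef2c was at -0.02 under that scaling and was not called (limma adjusted p = 0.59), while Tead1 and Mef2d stayed lower, at -0.40 and -0.28. With the length trend removed, the median of the list was -0.08. Mef2c then turned to 0.05 and was not called (limma adjusted p = 0.16), while Tead1 and Mef2d stayed lower, at -0.26 and -0.25.

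Myh3 made up most of the listed sarcomeric myosin heavy chain signal. The 6 listed genes of this family have transcripts of similar length, 6016 to 6230 bases, so their values can be set side by side whether or not the unit is per length. Myh3 accounted for 91.4%, 91.4% and 91.3% of their sum in Noggin-deficient libraries and for 90.9% and 90.8% in wild type libraries (exact permutation p = 0.2, the smallest possible). Myh1, Myh7b, Myh8 and Myh15 were not analysed here, and the share is one of these 6 genes. The sum itself was 659.2 ± 18.8 (SD, n = 3) in Noggin-deficient and 856.3 ± 4.04 (SD, n = 2) in wild type libraries. Myh7 came next with 38.8 ± 0.865 (SD, n = 3) in Noggin-deficient and 51.6 ± 0.248 (SD, n = 2) in wild type libraries. Myh2, Myh4, Myh6 and Myh13 lay between 2.87 and 7.47 in every library. In wild type libraries the range of Myh2 overlapped those of Myh6 and Myh13. In Noggin-deficient libraries Myh6 lay above both, at 5.31 to 5.92, while Myh2 and Myh13 overlapped at 4.57 to 4.96.

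All 6 heavy chain genes fell as deposited, beside 60.1% of all tested genes, and Myh2, Myh4 and Myh13 fell more than Myh3. With libraries scaled to their contractile sum, Myh3, Myh6 and Myh7 turned to 0.11, 0.13 and 0.07, and Myh4 alone was still called as lower (-0.28, limma adjusted p = 0.0054). Scaling of whole libraries acts on a difference from Myh3 only through the pseudocount, so it could hardly move these differences. That of Myh4 was -0.38 with median-of-ratios scaling and -0.39 with the contractile sum. Myh4, an adult fast chain, had values of 2.87, 3.05 and 3.2 in Noggin-deficient and 5.12 and 5.31 in wild type libraries. Its log2 change of -0.73 was lower than that of Myh3 by 0.36 (95% interval of the difference -0.53 to -0.20, limma adjusted p = 0.0014). Myh2, another fast chain, and Myh13, of extraocular muscle, had log2 changes of -0.59 each. Their differences from Myh3 were -0.22 for both (limma adjusted p = 0.0083 for Myh2 and 0.0069 for Myh13). The call of Myh2 was lost without the second wild type library (-0.16, limma adjusted p = 0.12). Myh7, the slow chain, had a log2 change of -0.41 and Myh6, mainly of heart, one of -0.34. Neither was told apart from Myh3: the intervals of the difference were -0.12 to 0.04 for Myh7 (limma adjusted p = 0.34) and -0.09 to 0.16 for Myh6 (limma adjusted p = 0.63). None of the differences from Myh3 passed against a 1.5-fold change (limma adjusted p = 1 for each). With the length trend removed, the differences were -0.36 for Myh4, -0.21 for Myh2 and -0.22 for Myh13. Transcripts of such similar length leave that removal little to change. Myh14, a non-muscle chain, had a log2 change of -0.52. The heavy chain genes are close in sequence and Myh2 overlaps an antisense gene; no label says how reads were shared out among them, so the values of the rarer chains are uncertain beside that of Myh3.

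**Figure D4:**
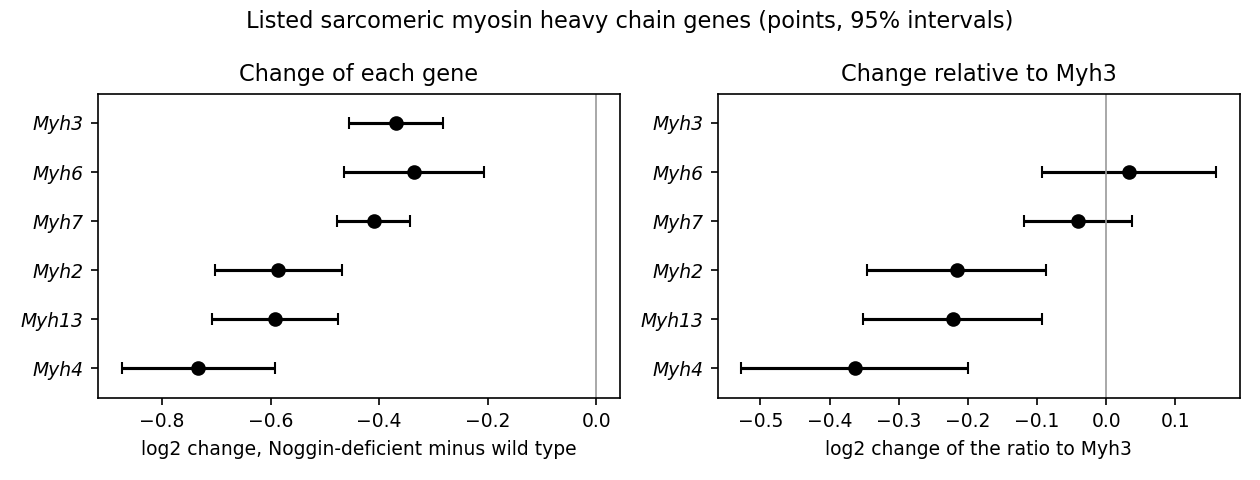
Log2 change, Noggin-deficient minus wild type (left), and change relative to Myh3 (right) for the listed sarcomeric myosin heavy chain genes; points are limma estimates and bars 95% intervals. Myh4, Myh2 and Myh13 lie below Myh3, with differences of -0.36, -0.22 and -0.22, while the intervals of Myh7 and Myh6 include 0.

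Most other contractile genes fell more than Myh3 and less than Myf6. Of 106 contractile genes on the lists besides Myh3, 68 were tested and all were called, 66 as lower and 2 as higher. Of all tested genes 60.1% were called as lower and 37.9% as higher. The median log2 change of the 68 was -0.56, against -0.28 for all tested genes. The median was -0.29 with median-of-ratios scaling, with 53 called as lower and 2 as higher, beside 32.2% and 38.6% of all genes. Against a 1.5-fold change 15 of the 68 passed, each lower, beside 10.3% of all tested genes as lower. In the fits relative to each gene, 42 of the 68 were called as lower than Myh3 and 2 as higher. The shares of all genes were 20.1% and 39.6%. Relative to Myf6, 3 were called as lower (Myoz3, Fhl1 and Mylk2) and 53 as higher, beside 5.5% and 87% of all genes. By log2 change alone, 10 of the 68 lay below Myf6, beside 8.13% of all tested genes.

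In the thick filament, Mybpc1, a myosin-binding protein, and Ttn, the giant protein titin, had log2 changes of -0.94 and -0.93, and Myom2, of the M-band, one of -0.57. Among light chains and kinases, Mylk2, the skeletal light chain kinase, was at -1.09, Myl3, a slow and ventricular light chain, at -0.87 and Mylk4 at -0.61. In the thin filament, Neb, of nebulin, was at -0.95, Xirp1 at -0.68 and Tmod1, which caps actin filaments, at -0.55. All of these were called as lower than Myh3, but they were named for the smallest p of their lists in these same data. Over the full lists, 5 of 9 tested thick filament genes, 3 of 4 light chain and kinase genes and 11 of 16 thin filament genes were. The share of all genes was 20.1%.

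At the Z-disc, Fhl1, a LIM protein, had a log2 change of -1.11, Pdlim5 one of -1.01 and Ldb3 one of -0.89. Myoz3, a calcineurin-binding protein, had the lowest of the contractile genes (-1.34), at values of 0.23 to 1.19. Log2 changes were positive for Ankrd2, a stretch-responsive protein (0.60), and for Actn3, an alpha-actinin restricted to fast fibres (0.70). Among genes that couple excitation to contraction, Cacng1, a calcium channel subunit, was at -0.88, Atp2a1, the calcium pump of fast fibres, at -0.66 and Srl, of sarcalumenin, at -0.60.

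At the neuromuscular junction 5 of 5 tested genes fell, beside 60.1% of all tested genes, with a median of -0.54 and with Erbb3, a neuregulin receptor, at -0.54, Utrn, of utrophin, at -0.55 and Colq at -0.48. Those 3 were still called as lower with median-of-ratios scaling and with the length trend removed. Of 6 progenitor genes 5 fell as deposited and Vcam1, an adhesion molecule, rose by 0.37; Notch1 had a log2 change of -0.35 and Itga7, a laminin receptor, one of -0.31. The list's median was -0.33 as deposited, -0.06 with median-of-ratios scaling and 0.03 with the length trend removed, where Notch1 turned to 0.05 and was not called (limma adjusted p = 0.15). The 4 tested genes of the fusion list fell as deposited, among them Myof, of myoferlin, at -0.48 and Cav3, the caveolin of muscle, at -0.32. With median-of-ratios scaling Myof alone was still called as lower (-0.22, limma adjusted p = 0.0033). Cav3 and Itga7 were then at -0.05 and -0.04 (limma adjusted p = 0.23 and 0.25), and Adam12, a metalloprotease, turned to 0.03 (limma adjusted p = 0.46). Notch1, Itga7, Myof and Cav3 were not told apart from Myh3 (limma adjusted p = 0.69, 0.30, 0.17 and 0.27).

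**Figure D5:**
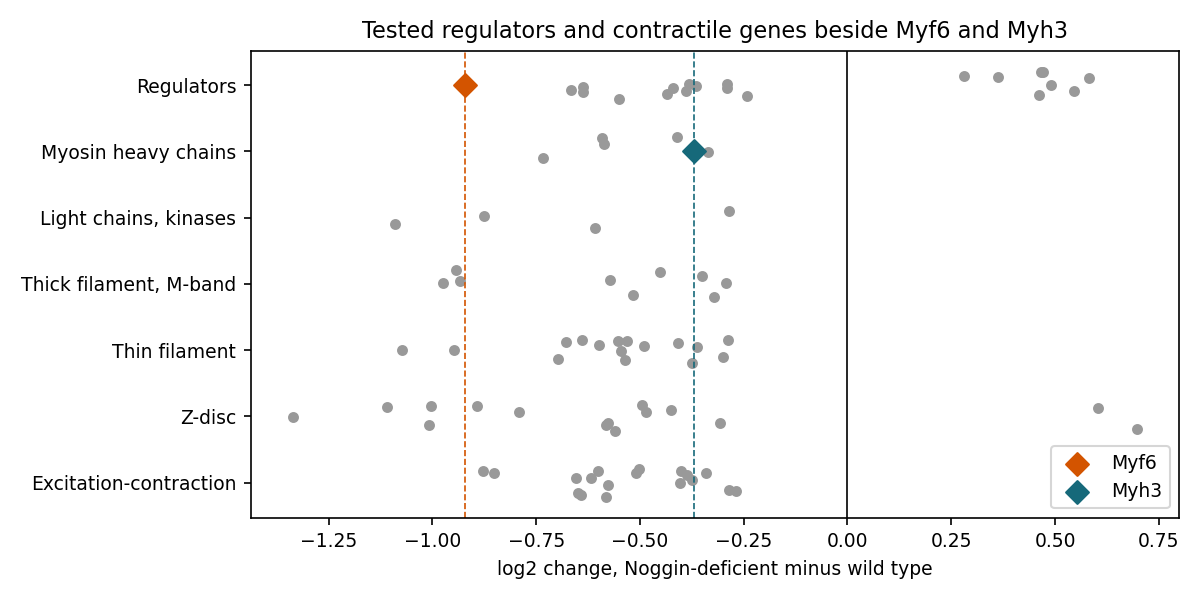
Log2 change, Noggin-deficient minus wild type, of each tested regulator and contractile gene (grey points, spread vertically for display); diamonds and dashed lines mark Myf6 at -0.92 and Myh3 at -0.37. Myf6 lies left of all other regulators, and 54 of 68 contractile genes lie left of Myh3.

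Set against the median contractile gene of the same library, Myf6 lay at -1.10, -1.14 and -1.11 log2 units in Noggin-deficient libraries and at -0.66 and -0.59 in wild type libraries, a difference of -0.49. Myh3 lay at 4.95, 4.96 and 4.95 in Noggin-deficient libraries and at 4.89 in both wild type libraries, a difference of 0.06. Neither measure overlapped between the groups (exact permutation p = 0.2 each, the smallest possible). These positions mix genes of different length, and only their differences between groups can be read. After removal of the length trend the differences were -0.84 for Myf6 and 0.28 for Myh3. With the libraries scaled to the same sum over the contractile genes, Myh3 turned to a log2 change of 0.11 (limma adjusted p = 0.006). Myf6 stayed at -0.45 (limma adjusted p = 6.1e-06). That sum leans on few genes: in Noggin-deficient libraries it was 6851 to 7113, with means of 1607 for Acta1 and 1264 for Actc1.

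The genes with the most similar profile over the 5 libraries were found by the Euclidean distance of log2 values centred on each gene's mean. For Myf6 these were Mybpc1 (distance 0.041), Macc1 (0.048), Sgpp1, a sphingosine phosphate phosphatase (0.049), Gldc, of the glycine cleavage system (0.051), and Ttn (0.054). Ldb3 followed within the contractile list at 0.062, while the nearest regulators, Tead1, Bhlhe40 and Sox6, stood off at 0.29 to 0.33. For Myh3 the nearest were Sik1, a salt-inducible kinase (0.016), Ssx2ip (0.017), Srd5a1, a steroid reductase (0.027), Sertad2 (0.028) and Creb3l1, a transcription factor (0.033). Casq1, of calsequestrin, and Actc1, the actin of embryonic and cardiac muscle, were the closest contractile genes, with log2 changes of -0.37 each, and Myh7 was the third. Mef2a (0.063), Tead4 and Mef2c were the closest regulators. With 5 libraries in 2 groups, these distances mainly rank genes by the size of their change.

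Markers of other tissues differed between the same libraries, and their part in the values of Myf6 and Myh3 was not tested. The counts below stand beside 60.1% of all tested genes called as lower and 37.9% as higher. Counts over few genes therefore say little. Skeletal muscle markers were abundant, and the 6 tested of 9 fell: their sum was 2773 to 2895 in Noggin-deficient and 4182 to 4251 in wild type libraries, with Acta1, of skeletal actin, at -0.55. Of 7 cardiac markers only Myh6 had values, so heart muscle was not checked. All 12 epidermis markers with values fell (Krt10 -1.58), with sums of 1277 to 1322 in Noggin-deficient and 3047 to 3051 in wild type libraries. The 8 tested liver markers rose (Alb 5.98), with sums of 97.8 to 98.3 in Noggin-deficient and 1.43 to 1.68 in wild type libraries, where Serpina1a and Fgb were listed at 0. The 5 erythroid markers rose (Hbb-y 1.42), with sums of 219 to 226 in Noggin-deficient and 94.0 to 98.4 in wild type libraries. Of 5 fat markers 4 rose, among them Fabp4 at 1.13, with sums of 195 to 202 in Noggin-deficient and 86.4 to 89.3 in wild type libraries. Both endothelial markers rose (Eng 0.46), with sums of 91.3 to 93.7 in Noggin-deficient and 62.6 to 64.1 in wild type libraries. Of 8 tested markers of neurons and Schwann cells 5 rose and 3 fell. Tubb3, a tubulin of neurons, was at 7.66, 7.62 and 8.29 in Noggin-deficient and at 1.10 and 1.24 in wild type libraries, a log2 change of 2.51. Th, of catecholamine synthesis, was at 1.31 to 1.62 in Noggin-deficient and at 0.01 and 0.03 in wild type libraries, a log2 change of 2.70. Of 6 cartilage and bone markers 4 rose and 2 fell (Col2a1 -0.29), with sums of 177 to 182 in Noggin-deficient and 163 to 165 in wild type libraries. The 3 connective tissue markers fell (Col1a1 -0.41), with sums of 4281 to 4287 in Noggin-deficient and 5634 to 5735 in wild type libraries.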

How the data were processed

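RNA from forelimb muscle tissue was measured by stranded mRNA sequencing in 3 Noggin-deficient and 2 wild type libraries, grouped by their titles and genotype labels. Each gene has 1 deposited signal per library, at or above 0; its unit, and how the authors normalized it, are stated in neither labels nor file headers. Per the submitters' processing notes, the build was mm9 and the tools included STAR 2.4.2a and DESeq2, with no roles given. Values carry mostly 2 decimals, so depth is unknown and no counting interval was given.

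Log2(value + 0.25) was tested with limma 3.58.1 (R 4.3.3) with an intensity trend, Noggin-deficient minus wild type. Genes at 0.5 or more in at least 2 libraries entered, 3913 of 4743. Called genes had a Benjamini-Hochberg adjusted p under 0.05 over all of them, and 95% intervals are limma's. Log2 changes on this scale understate those of low genes. Changes relative to Myh3 or Myf6 came from the same fit after that gene's log2 value had been subtracted in each library. Two-sided exact permutation tests over 10 splits of 3 against 2 cannot go below p = 0.2. Lengths are of the longest GENCODE transcript, found for 4462 genes (94.1%). The scripts were tested on simulated data.

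Members, gene lists and tests were chosen with earlier results of these data known. The genes named were all listed myosin heavy chains and myogenic factors, the 3 smallest p of each other list and 1 member moving against its median, the nearest patterns, and the most abundant marker of each cell type. Other members named were chosen after their values were seen. 1 marker gene and the sum of its list are not reported here. The fits relative to a gene and the scaling to the contractile sum were added after the data had been seen. The alternatives were other scalings, pseudocounts of 1 and 0.05, other filters, removal of the length trend, no intensity trend, a test against a 1.5-fold change, a replicate block and leaving out each library.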

Additional observations from a re-analysis of the deposited data

How the results depend on the processing

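Myf6 kept its fall and its call under every alternative run, from -1.16 (length trend removed) to -0.45 (libraries scaled to the contractile sum), and from -0.95 to -0.89 with 1 library left out. Myh3 kept its direction except under the scaling to the contractile sum, where it was at 0.11; with the length trend removed (-0.042) and against a 1.5-fold change (-0.37) it was no longer called, and with 1 library left out it ranged from -0.39 to -0.35. The group difference in the log2 ratio of Myf6 to Myh3 was -0.50 with a pseudocount of 1 and -1.12 with the length trend removed. It was -0.59 to -0.52 with 1 library left out. The group difference in the position of Myf6 against the contractile median was -0.42 over genes with a mean of at least 2. With the length trend removed it was -0.84, and with 1 library left out -0.52 to -0.46. For Myh3 this group difference was 0.050 with a pseudocount of 1, 0.053 with no filter and 0.13 over genes with a mean of at least 2. With the length trend removed it was 0.28, and with 1 library left out 0.058 to 0.066. The cause of these shifts was not tested.

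Against a 1.5-fold change 569 of 3913 genes were called (14.5%). So were 15 of 68 contractile genes and, by limma's treat, 0 of 20 regulators (1 at an unadjusted p under 0.05). In the fits relative to a gene, 4 of the 68 contractile genes then differed from Myh3 and 2 from Myf6. No share of all genes is given for these 2 counts, so they are not read further. The differences of Myf6, Myh2, Myh4 and Myh13 from Myh3 lost their calls there and kept them under the 3 other scalings. Such scalings can hardly alter a difference within a library. Scaled to the contractile sum, 43 contractile genes were called, 15 higher and 28 lower, beside 52.9% and 16.5% of all genes. This scaling equalizes the sum of these same genes, so a split of them into higher and lower is built in. With 1 Noggin-deficient library left out, 3742 to 3767 genes were called, of 3883 to 3889 tested. All 68 contractile genes and 19 to 20 of 20 regulators were called in these fits. Of the 68 contractile genes, 41 to 43 differed from Myh3 and 53 to 56 from Myf6. With all libraries, 59.7% of all genes differed from Myh3 and 92.5% from Myf6. In the fits without a wild type library, the 1 that remained was assumed to vary like the others. With the replicate number as a replicate block, Myf6 was at -0.91, Myh3 at -0.35 and 3772 genes were called; nothing in the labels says that the numbers pair the libraries, and deviations of same-numbered libraries correlated at -0.13 and -0.06 over 2 pairs. Depth is unknown, so low values carry an error that cannot be given.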
